A study of Mus musculus with 10 samples.

Results

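Transcripts of the p53 pathway were measured in livers of mice that lack *Ndrg3* in the liver. The 10 members are *Trp53*, which encodes p53, and the p53 target genes *Cdkn1a*, *Mdm2*, *Ccng1*, *Trp53inp1*, *Eda2r*, *Bbc3*, *Bax*, *Phlda3* and *Gdf15*. They were chosen by gene symbol, and all 10 were found among the 24052 genes listed for each liver. RNA sequencing was performed on 5 wild-type and 5 Ndrg3 LKO livers, with 1 library per liver, from C57BL/6 mice that were fed ad libitum. The livers came from separate mice, aged 8 to 10 weeks, although a legend of the study gives an older range. In Ndrg3 LKO mice, Cre recombinase under the albumin promoter removes the floxed exon 4 of *Ndrg3*. The albumin promoter is active in hepatocytes, so other cells of the liver keep the gene. Wild-type littermates served as controls, and whether they carried the floxed allele or Cre alone is not given in the sources used here. The labels name no treatment.

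The transcription factor p53 is kept scarce in unstressed cells by MDM2, a ubiquitin ligase that marks it for degradation. DNA damage and other stresses release p53, which then binds a pair of half-sites in DNA and switches on genes for cell cycle arrest, DNA repair, apoptosis and metabolism. Several of its targets, *Mdm2* and *Ccng1* among them, act back on p53 and limit its activity. p53 is controlled mostly as a protein, which was not measured in these data. In hepatocytes, p53 is known for holding the cell cycle through p21, the product of *Cdkn1a*.

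The DNA around the members was searched for the p53 response element, to show which of them carry the known binding sequence near their start. A match was 2 p53 half-sites of 10 bases with a gap of 0 or 1 base, at most 2 mismatches in 20 bases and the central C and G of each half-site kept. The half-site reads the same on both strands, so 1 search covers both. The genome was NCBIM37, the assembly also called mm9, which the files use. Within 3000 bases of the 5′-most annotated start, 6 of the 10 members held a match. Of 22365 protein-coding genes, 13.8% did, and of 41 other known p53 targets 13 did. With at most 1 mismatch, 4 members held a match (*Cdkn1a*, *Ccng1*, *Trp53inp1* and *Gdf15*), against 2.61% of protein-coding genes and 4 of the 41 other targets. The matches are printed 5′ to 3′ on the strand of the gene, with the half-sites in capitals and the gap and 4 flanking bases on each side in lower case.
Cdkn1a (chr17:29227873-29227892): tcagGAACATGTCTTGACATGTTCagcc
Ccng1, before the start (chr11:40568964-40568983): ggccAGACCTGCCCGGGCAAGCCTtggc
Ccng1, intron (chr11:40568438-40568457): cggaACGCAAGCCCGGGCTAGTCTgcgc
Trp53inp1 (chr4:11082259-11082279): aggaAAACATGTCCaGGACTAGCCTggac
Eda2r (chrX:94571873-94571892): gcctGGGCAAGTCCGGGCCTGTGTaaaa
Bax, before the start (chr7:52722449-52722469): tcccAGGCAAGCTTtGAACTTGCGGcaat
Bax, exon (chr7:52721944-52721963): ccccGGGCAGGCCCGGGCTTGTCGctgg
Gdf15 (chr8:73155865-73155884): ggggTGACTTGCCTGAACTTGCCTtttc
Mdm2 (chr10:117154792-117154811): gaggAAACATGTACAAACATGTCCaagc
Bbc3, intron (chr7:16901203-16901223): gcctGGGCTAGTTCtGGGCATGTACtcta

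The *Trp53inp1* match, 1309 bases before the start, was the 1 match of a member with 0 mismatches. The *Cdkn1a* match lay 42 bases before the 5′-most annotated start with 1 mismatch. *Ccng1* held matches 160 bases before and 366 bases after its start, the second in an intron, each with 1 mismatch. *Gdf15* held a match with 1 mismatch 480 bases after its start, in an untranslated or noncoding exon. The matches of *Bax*, 191 bases before and 314 bases after the start, and that of *Eda2r*, 672 bases after the start in an intron, had 2 mismatches. *Mdm2*, *Trp53*, *Bbc3* and *Phlda3* held none within 3000 bases. Within 10000 bases all 10 members held a match, but so did 40.0% of protein-coding genes and 25 of the 41 other p53 targets. *Mdm2* and *Bbc3* are printed because each then held a match with 1 mismatch, 6988 bases before the start of *Mdm2* and 6248 bases after that of *Bbc3*, in an intron. Elements with more mismatches, a longer gap or a changed central C or G were not searched for. A gene without a match may therefore still hold an element. A match is a description of letters, and binding of p53 was not measured.

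**Figure D1:**
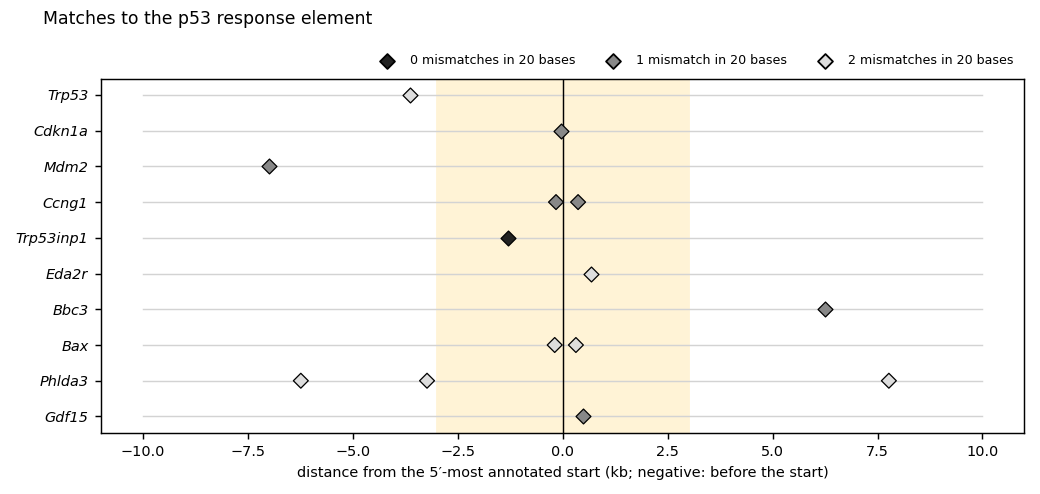
Matches to the p53 response element around each member, by distance from the 5′-most annotated start in kb (x axis, negative before the start), with the shade of each diamond giving the mismatches in 20 bases. The shaded band is the window of 3000 bases on each side, which holds matches of 6 of the 10 members.

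The livers held between 20872262 and 30450057 counted reads each. *Ndrg3* served as the check of the labels. Its level, in CPM scaled with edgeR's TMM factors (TMM-normalized CPM, the unit of every level that follows), was 16.0 to 21.9 in the wild-type livers and 7.08 to 9.18 in the Ndrg3 LKO livers, with every knockout liver below every wild-type liver. 1 library stood apart from its group. On the first principal component of log2(CPM + 1), which held 68.7% of the variance, the lowest and highest wild-type livers were at -49.9 and -43.1. Replicates 1 to 4 of the Ndrg3 LKO group were at 51.1 or above, and replicate 5 was at 14.1. Fold changes of the members and counts for the lists of other p53 targets are therefore given with all 10 livers and again without Ndrg3 LKO replicate 5. Markers of several cell types moved with the genotype. The counts are from the test given in the next paragraph, which called 25.6% of all genes higher and 23.0% lower. All 10 macrophage markers were higher in Ndrg3 LKO livers (summed level 94.2 to 235 in wild-type and 211 to 654 in Ndrg3 LKO livers), as were 7 of 8 endothelial markers and 7 of 10 markers of stellate cells and fibroblasts. Of 10 hepatocyte markers 7 were lower, with a summed level of 140672 to 183370 in wild-type livers, 39140 to 46765 in Ndrg3 LKO replicates 1 to 4 and 157298 in replicate 5. *Alb* made up 108020 of the sum in replicate 5. In that liver *Apoa1*, *Apob*, *Fgb* and *Hnf4a* were below every wild-type liver, as in replicates 1 to 4. Its levels of *Alb*, *Ttr*, *Tat*, *Cps1* and *Pck1* were inside the wild-type range, and that of *Serpina1a* was above it. Of 6 biliary markers tested, 1 was higher and 1 lower, and of the blood cell markers only *Alas2* was tested, which was lower. None of 10 lymphocyte and 7 neutrophil markers was high enough to be tested, and of these only *Mpo* was at 0 in every wild-type liver. In bulk tissue, fewer cells of a type and less RNA per cell cannot be told apart, and the part of these cell types in the results below was not tested.

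In Ndrg3 LKO livers 6 members were higher and none was lower. The gene for p53 itself, its feedback genes *Mdm2* and *Ccng1*, the stress gene *Trp53inp1*, the pro-apoptotic *Bax* and the AKT inhibitor *Phlda3* rose, with log2 fold changes between 0.73 and 3.06. *Cdkn1a*, *Bbc3* and *Gdf15* did not pass the test. The receptor gene *Eda2r* was too low in wild-type livers to enter the test, which required 1 CPM in at least 5 livers. It had the largest ratio of group means among the members. The test was edgeR's quasi-likelihood test of all 11208 genes that passed this filter, with Benjamini-Hochberg adjustment and a threshold of 0.05, and it called 25.6% of genes higher and 23.0% lower. The 6 of 9 members called higher stand beside that 25.6%. *Phlda3* would not have passed the filter in wild-type livers alone and was tested through its level in the knockout group. Of the 8 members that pass in wild-type livers alone, 5 were called higher. The median log2 fold change of the 9 members was 0.87, and that of all genes tested was 0.031. Without Ndrg3 LKO replicate 5, 28.4% of 11446 genes were higher and 27.2% lower. In that fit all 10 members were tested, with 7 higher (*Eda2r* joined the 6) and 1 lower (*Bbc3*). *Eda2r* and *Phlda3* entered it through the knockout livers, and of the 8 members that pass in wild-type livers alone 5 were higher and 1 lower. Scaled by library totals alone, without TMM, the median of all genes shifted up by 0.53 and 85.3% of all calls were higher, against 52.6% with TMM. The same 6 members were called higher on that scale, beside *Gdf15*. The members had been chosen with earlier results of these data known, so these counts describe the members and do not test them as a group.

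*Trp53* lies on chromosome 11 (69393861 to 69405375, plus strand). In replicate order, its counts were 262, 253, 153, 225 and 172 in the wild-type group. In the knockout group they were 675, 822, 804, 781 and 226. Scaled to library size, its level was 14.7, 12.4, 8.53, 10.4 and 10.3 in the wild-type livers, between 19.4 and 22.3 in Ndrg3 LKO replicates 1 to 4 and 10.7 in replicate 5. Replicates 1 to 4 lay above every wild-type liver, and replicate 5 lay inside the wild-type range. The log2 fold change was 0.73 (standard error, SE, 0.21, edgeR adjusted p = 0.0127, exact permutation p = 0.0238), and 0.86 without replicate 5 (SE 0.15, edgeR adjusted p = 0.000652). The related genes *Trp63* and *Trp73*, whose proteins bind the same DNA element, stayed at or below 0.112 in every liver.

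*Mdm2* and *Ccng1*, which act back on p53 and limit its activity, rose. *Mdm2*, the ubiquitin ligase gene on chromosome 10 (117125944 to 117147814, minus strand), stood at 23.2, 20.2, 19.6, 25.8 and 20.6 in wild-type livers and at 33.3, 51.9, 43.3, 47.4 and 23.7 in Ndrg3 LKO livers. Its log2 fold change was 0.87 (SE 0.19, edgeR adjusted p = 0.00349), and 1.0 without replicate 5 (edgeR adjusted p = 0.000152), the 1 knockout liver inside the wild-type range. *Ccng1* encodes cyclin G1, which brings the phosphatase PP2A to MDM2, and lies on chromosome 11 (40562054 to 40568813, minus strand). Its levels were 22.7, 23.0, 27.2, 28.2 and 25.9 in wild-type livers and 60.4, 85.2, 57.1, 82.9 and 28.6 in Ndrg3 LKO livers. The groups did not overlap, but replicate 5 lay just above the highest wild-type liver, while replicates 1 to 4 were all far above it. On the log2 scale *Ccng1* rose by 1.31 (SE 0.24, edgeR adjusted p = 0.00121), and 1.48 without replicate 5. The pair of matches printed above flanks the start of this gene.

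*Cdkn1a*, the gene of the cyclin-dependent kinase inhibitor p21, lies on chromosome 17 (29227924 to 29237667, plus strand). Its groups overlapped widely. Levels were 171, 108, 139, 27.1 and 44.1 in wild-type livers and 103, 121, 81.5, 177 and 63.9 in Ndrg3 LKO livers. The wild-type livers alone covered nearly the whole range. The log2 fold change of 0.16 (SE 0.45, edgeR adjusted p = 0.787) was smaller than its error, as was that of 0.29 without replicate 5 (SE 0.45). A spread this wide leaves a moderate change in either direction undetectable in these livers.

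*Trp53inp1* encodes a stress-induced protein that acts with p53 and in autophagy, and lies on chromosome 4 (11083578 to 11101526, plus strand). It stood at 146, 170, 239, 142 and 173 in wild-type livers and at 314, 565, 321, 338 and 182 in Ndrg3 LKO livers. Replicates 1 to 4 lay above every wild-type liver, with replicate 2 highest, and replicate 5 lay inside the wild-type range. *Trp53inp1* rose by 0.98 on the log2 scale (SE 0.26, edgeR adjusted p = 0.00905), and 1.13 without replicate 5.

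Among the members with roles in cell death, *Eda2r*, *Phlda3* and *Bax* were higher in every Ndrg3 LKO liver than in any wild-type liver, and *Bbc3* went the other way in 4 of 5. *Eda2r* encodes a receptor of the tumour necrosis factor receptor family that binds ectodysplasin A2, and lies on chromosome X (94529179 to 94572555, minus strand). It had 5, 3, 2, 3 and 1 counts in wild-type livers and 232, 422, 254, 338 and 10 counts in Ndrg3 LKO livers. As levels these were 0.0596 to 0.281 in wild-type livers, and 6.68, 10.2, 6.55, 9.65 and 0.472 in Ndrg3 LKO livers. The summed counts, 14 against 1256, gave a ratio of Ndrg3 LKO to wild-type of 49.7 after scaling (95% exact binomial interval 29.5 to 91.1, which covers counting error only). With no filter on low counts the log2 fold change was 5.44 (SE 0.70, edgeR adjusted p = 8.49e-05), and the exact permutation test gave p = 0.00794, which is as low as a split of 5 against 5 can go. Without replicate 5, where *Eda2r* passes the filter through the knockout livers alone, it was 5.75 (SE 0.32). A fitted fold change from so few wild-type counts depends on the prior count of the fit.

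*Phlda3* encodes a small membrane-binding protein that restrains the survival kinase AKT, and lies on chromosome 1 (137662696 to 137665713, plus strand). Its levels were 0.899, 1.13, 1.28, 0.828 and 1.61 in wild-type livers and 11.8, 7.55, 6.39, 18.8 and 3.02 in Ndrg3 LKO livers. The lowest knockout liver was replicate 5, still above all wild-type livers. The change of 3.06 on the log2 scale (SE 0.44, edgeR adjusted p = 0.000248) was the largest among the 9 members tested in all livers, and it was 3.27 without replicate 5.

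*Bax*, whose product opens the outer mitochondrial membrane in apoptosis, lies on chromosome 7 (52717065 to 52722268, minus strand). It stood at 22.3, 25.8, 23.0, 19.8 and 29.1 in wild-type livers and at 49.2, 30.1, 34.5, 55.7 and 30.2 in Ndrg3 LKO livers. The groups did not overlap, although replicates 2 and 5 lay close above the highest wild-type liver, and replicates 1 and 4 were well above the rest. *Bax* rose by 0.73 on the log2 scale (SE 0.19, edgeR adjusted p = 0.00842), and 0.81 without replicate 5. *Bbc3* encodes PUMA, a BH3-only protein that acts upstream of BAX, and lies on the same chromosome (16894965 to 16903554, plus strand). Its levels were 8.94, 7.97, 7.31, 6.95 and 6.86 in wild-type livers and 5.30, 2.84, 3.56, 4.62 and 8.59 in Ndrg3 LKO livers. Replicates 1 to 4 lay below every wild-type liver, and replicate 5 was near the highest. The log2 fold change of -0.62 (SE 0.26) missed the threshold in all 10 livers (edgeR adjusted p = 0.0678). Without replicate 5 it was -0.91 (SE 0.20, edgeR adjusted p = 0.00229). The call of *Bbc3* depended on that library and on the test, since DESeq2 (-0.63), limma-voom (-0.77) and limma on quantile-normalized values (-0.65) called it lower in all 10 livers.

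*Gdf15* encodes a secreted stress hormone of the TGF-beta superfamily, which the integrated stress response also switches on, and lies on chromosome 8 (73153292 to 73156355, minus strand). Its levels were 8.66, 16.0, 7.75, 2.02 and 13.7 in wild-type livers and 21.8, 13.6, 5.83, 40.7 and 9.87 in Ndrg3 LKO livers. In the knockout group, replicates 1 and 4 lay above the wild-type range and the other 3 inside it. The fitted log2 change was 0.94 (SE 0.55, edgeR adjusted p = 0.175), and 1.08 without replicate 5 (edgeR adjusted p = 0.117). Replicate 4 carried much of it, and without that liver it was 0.41 (edgeR adjusted p = 0.532).

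**Figure D2:**
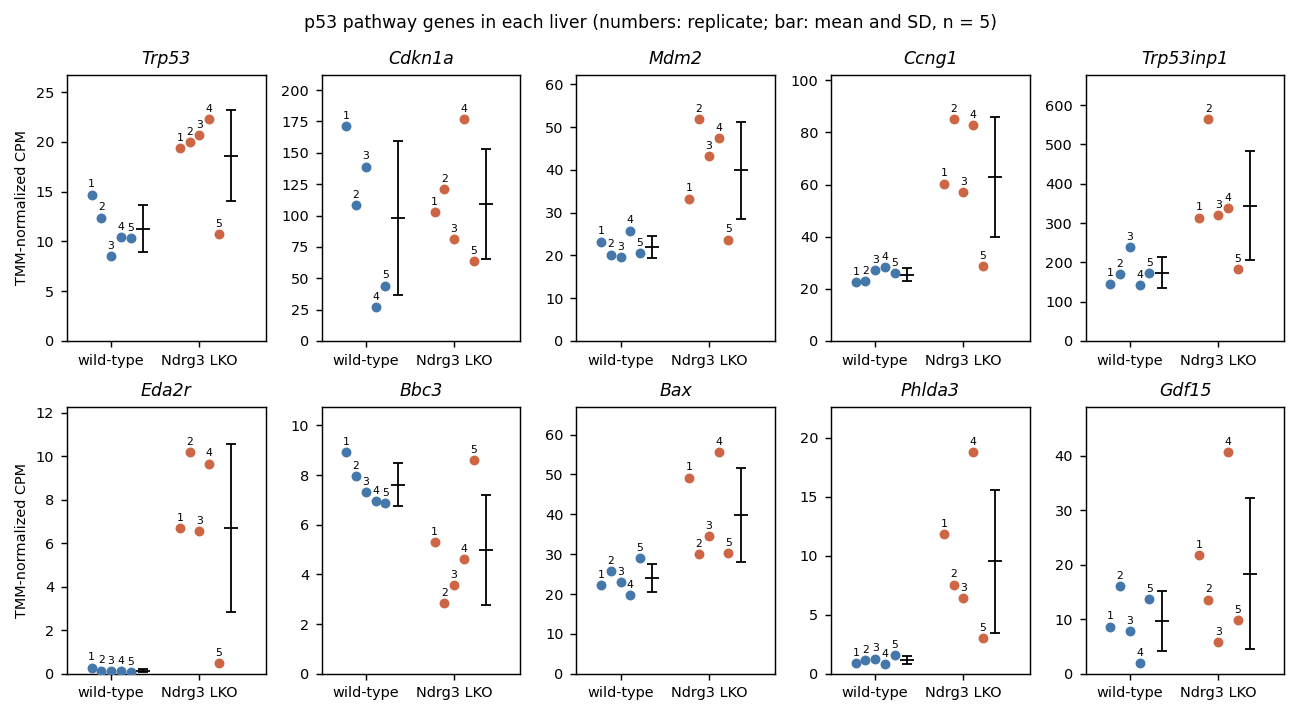
TMM-normalized CPM (y axis) of the 10 members in each of 5 wild-type and 5 Ndrg3 LKO livers, 1 numbered point per liver, with the group mean and SD as a bar. Ndrg3 LKO replicate 5 is the lowest knockout liver for 7 members, and for *Bbc3* it is the highest.

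Across the members, 4 had groups that did not overlap, all higher in Ndrg3 LKO livers (*Ccng1*, *Eda2r*, *Bax* and *Phlda3*). Of all genes tested, 15.6% had every knockout liver above every wild-type liver. *Eda2r* was not among the genes tested, and *Phlda3* was tested through its level in the knockout livers. Of the members that pass the filter in wild-type livers alone, *Ccng1* and *Bax* had groups apart. Without Ndrg3 LKO replicate 5 the groups were apart for 8 members, 7 higher and 1 lower, where 22.4% of all genes tested in that fit were higher and 22.3% lower with no overlap. Among the 7 were *Eda2r* and *Phlda3*, which entered that fit through the knockout livers. Ndrg3 LKO replicate 5 lay inside the wild-type range for 6 of the 10 members. It was also the knockout liver whose hepatocyte marker sum, mostly *Alb*, was within the wild-type range. The highest knockout liver was replicate 4 for *Trp53*, *Cdkn1a*, *Bax*, *Phlda3* and *Gdf15*, and replicate 2 for *Mdm2*, *Ccng1*, *Trp53inp1* and *Eda2r*.

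Levels were compared between members as TMM-normalized CPM per kb of annotated exon. In wild-type livers *Cdkn1a* had the highest mean level, 44.0 ± 27.6 (SD, n = 5), followed by *Trp53inp1* at 26.9 ± 6.01 and *Bax* at 17.9 ± 2.66. The *Cdkn1a* range, 12.2 to 76.9, covered both of these neighbours, while *Trp53inp1* and *Bax* did not overlap. *Ccng1* at 7.23 ± 0.703, *Gdf15* at 5.20 ± 2.95, *Mdm2* at 4.32 ± 0.510, *Bbc3* at 3.79 ± 0.430 and *Trp53* at 2.79 ± 0.583 came next. These 5 ranges each overlapped the next in the order, but *Ccng1* lay wholly below *Bax*, and *Trp53* wholly above *Phlda3*. *Phlda3* at 0.737 ± 0.202 and *Eda2r* at 0.0250 ± 0.0139 were the lowest, with ranges apart from each other and below those of the other members. In Ndrg3 LKO livers the mean of *Trp53inp1*, 53.1 ± 21.4, came first and that of *Cdkn1a*, 49.2 ± 19.6, second, with overlapping ranges. *Phlda3* moved from ninth to seventh place with 6.10 ± 3.89, above *Trp53* at 4.60 ± 1.13 and *Bbc3* at 2.48 ± 1.11, whose ranges overlapped it. *Eda2r* stayed last at 1.14 ± 0.656.

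Other p53 targets moved in both directions. Of 41 listed, 35 were tested, with 13 higher, 8 lower and 14 neither, against the 25.6% and 23.0% of all genes, and their median log2 fold change was 0.15. Without Ndrg3 LKO replicate 5, 15 were higher and 11 lower of 38, against 28.4% and 27.2% of all genes in that fit. Of the 35, 6 would not have passed the filter in wild-type livers alone, and of the other 29, 9 were higher and 8 lower. Without replicate 5, of the 29 that pass in wild-type livers alone 8 were higher and 11 lower. Of the 5 cell cycle arrest genes tested, 3 rose and none fell, beside 25.6% and 23.0% of all genes. Without replicate 5, 5 rose and 2 fell of 7, beside 28.4% and 27.2%. Of the 3 that pass the filter in wild-type livers alone, 1 rose and none fell, and without replicate 5, 1 rose and 2 fell. By a rule that uses only abundance, the 2 most abundant genes of each list are named. For cell cycle arrest these were *Plk3*, a stress kinase, and *Btg2*, an antiproliferative factor, with log2 fold changes of -0.79 (SE 0.33) and -0.22 (SE 0.36), neither of which passed the test. Both were called lower without replicate 5 (-1.19 and -0.74, edgeR adjusted p = 0.00155 and 0.0131). The 3 that rose, named after their values were seen, were the growth arrest gene *Gadd45a* (0.675 to 1.01 in wild-type and 1.52 to 7.25 in Ndrg3 LKO livers), the kinase gene *Plk2* (3.13 to 6.99 and 7.08 to 30.3) and the mitotic spindle gene *Ckap2* (0.00 to 0.294 and 1.11 to 6.36). *Gadd45a* and *Ckap2* were tested only through their level in the knockout livers, and *Ckap2* is itself a gene of dividing cells.

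Of 8 apoptosis genes tested, 4 rose and 2 fell, beside 25.6% and 23.0% of all genes. Without replicate 5, 4 rose and 2 fell of 9, beside 28.4% and 27.2%. Of the 6 that pass the filter in wild-type livers alone, 3 rose and 2 fell in all 10 livers. *Perp*, a membrane protein of cell junctions and apoptosis, was the second most abundant. Its level was 95.1 to 117 in wild-type and 136 to 183 in Ndrg3 LKO livers (log2 fold change 0.60, SE 0.12, edgeR adjusted p = 0.00175). The most abundant, *Ei24*, did not pass (-0.14, SE 0.13). Named after their values were seen, *Apaf1*, the scaffold of the apoptosome, rose by 1.49 on the log2 scale, the nuclease gene *Aen* by 2.08 and *Siva1* by 0.69, the last no longer called without replicate 5 (0.56, edgeR adjusted p = 0.0725). *Apaf1* was tested only through its level in the knockout livers. *Fas*, the death receptor of Fas ligand, and *Bid*, a BH3-only gene, fell by 0.70 and 0.51. *Tnfrsf10b*, the mouse TRAIL receptor gene, was too low in wild-type livers for the test, as *Eda2r* was. Its levels were 0.112 to 0.245 in wild-type livers and 4.72, 6.63, 4.79, 7.65 and 0.944 in Ndrg3 LKO replicates 1 to 5. So *Fas* was lower in every knockout liver, while *Tnfrsf10b* was higher in each, as was the related receptor gene *Eda2r*.

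Of 6 DNA repair genes, 2 rose and none fell, beside 25.6% and 23.0% of all genes. Without replicate 5 the counts were the same, beside 28.4% and 27.2%. Of the 5 that pass the filter in wild-type livers alone, 2 rose and none fell. *Xpc* and *Ercc5*, which act in nucleotide excision repair, had log2 fold changes of -0.29 and 0.19 and did not pass. The 2 that rose, named after their values were seen, were the translesion polymerase genes *Polk* and *Polh*, by 2.28 and 0.56. *Polk* stood at 2.74 to 3.49 in wild-type livers, at 12.7 to 20.9 in Ndrg3 LKO replicates 1 to 4 and at 4.53 in replicate 5. Of 6 feedback and RNA genes 2 rose and 2 fell, beside 25.6% and 23.0% of all genes, with the same counts without replicate 5. *Rps27l*, a ribosomal protein gene, did not pass (0.21, SE 0.21), and *Rfwd2*, which encodes the p53 ubiquitin ligase COP1, fell by 0.76. Named after their values were seen, the RNA-binding protein gene *Zmat3* and *Triap1* rose by 1.33 and 0.88, and the phosphatase gene *Ppm1d*, a brake on p53, fell by 0.58. *Zmat3* stood at 6.69 to 8.70 in wild-type livers, at 20.1 to 25.4 in replicates 1 to 4 and at 6.75 in replicate 5.

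Of 10 metabolism and autophagy genes 4 fell and 2 rose, beside 23.0% of all genes lower and 25.6% higher. Without replicate 5, 5 fell and 2 rose, beside 27.2% and 28.4%. Of the 9 that pass the filter in wild-type livers alone, 4 fell and 1 rose in all 10 livers. *Aldh4a1*, a mitochondrial enzyme of proline breakdown, fell by 0.86 on the log2 scale (427 to 526 in wild-type and 182 to 447 in Ndrg3 LKO livers). *Gls2*, the liver glutaminase, did not pass (0.39, SE 0.27). Named after their values were seen, *Pank1*, *Sesn1* and *Fdxr* fell by 1.52, 1.08 and 0.98. *9630033F20Rik*, the symbol under which the files list *Tigar*, and the autophagy gene *Dram1* rose by 0.84 and 1.70. *Dram1* was tested only through its level in the knockout livers. *Sesn1* and *Pank1* were lower in every Ndrg3 LKO liver. In Ndrg3 LKO replicate 5, *Aldh4a1* at 447 and *Fdxr* at 24.7 were within their wild-type ranges. The hepatocyte marker sum of that liver, mostly *Alb*, was within the wild-type range too.

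**Figure D3:**
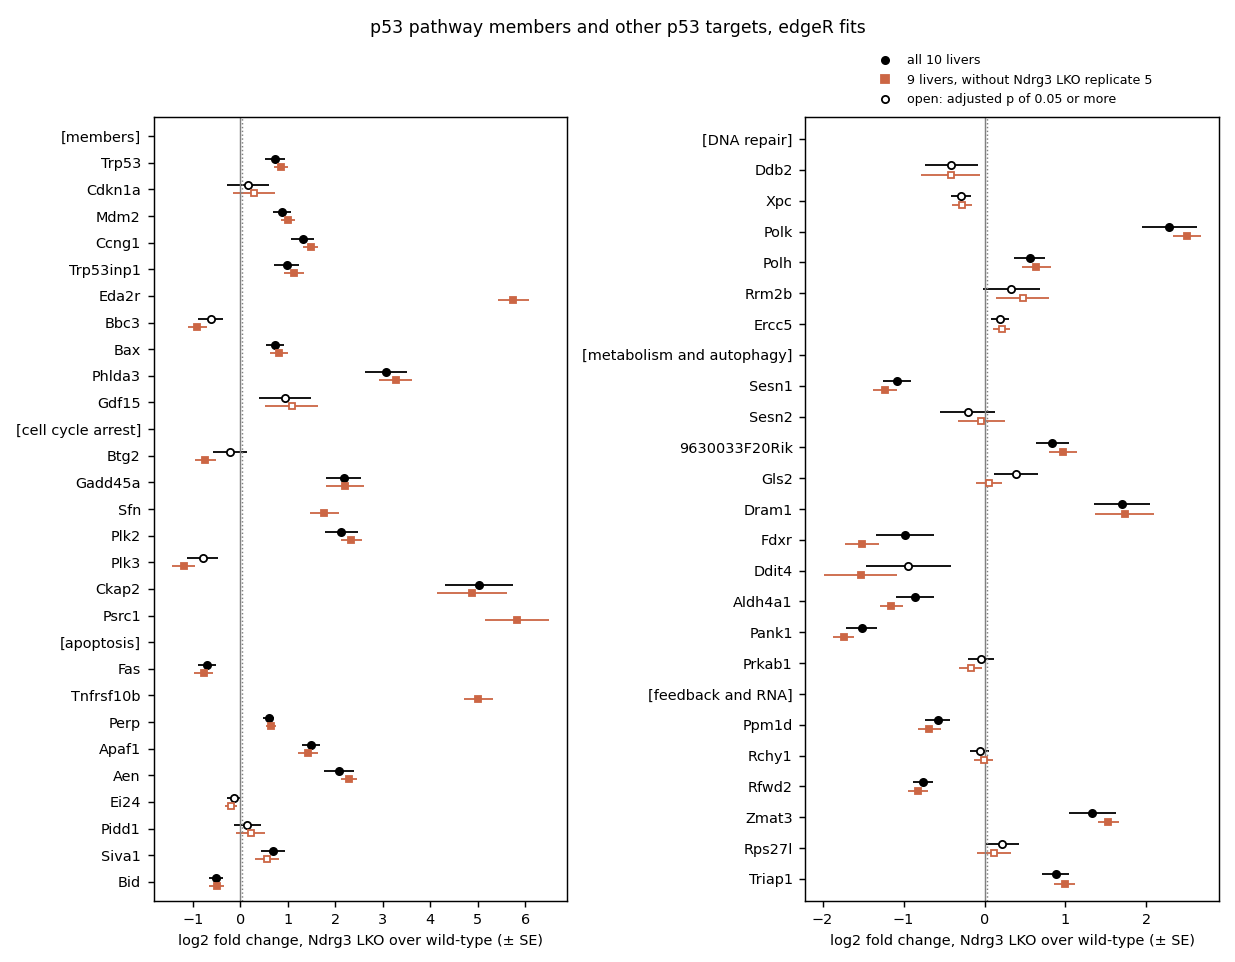
Log2 fold change of Ndrg3 LKO over wild-type (x axis, ± SE) of the members and of the other p53 targets by function, from edgeR fits of all 10 livers (circles) and of 9 livers without Ndrg3 LKO replicate 5 (squares), open where the adjusted p was 0.05 or more. The dotted line marks the median of all genes tested, 0.031. *Eda2r*, *Tnfrsf10b*, *Sfn* and *Psrc1* were tested in the 9 livers only.

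Of 16 regulators of p53 tested, 4 rose, 3 fell and 9 did neither, with a median log2 fold change of 0.14. These counts stand beside 25.6% of all genes higher and 23.0% lower, so they were near the share of all genes. Of the 15 that pass in wild-type livers alone, 3 rose and 3 fell. The most abundant, the ribosomal protein genes *Rpl11* and *Rpl5*, whose proteins bind MDM2, had log2 fold changes of 0.33 (edgeR adjusted p = 0.114) and 0.41 (edgeR adjusted p = 0.0482). The call of *Rpl5* was lost without replicate 5 (0.37, edgeR adjusted p = 0.0664), which left 3 regulators higher. Ribosomal protein genes have many near-identical pseudogenes, so the counts of *Rpl5*, *Rpl11* and *Rps27l* are uncertain. So are those of genes that overlap another gene on the opposite strand, which here include *Gadd45a*, *Plk3*, *Apaf1*, *Bid*, *Polk*, *Gls2*, *Atr*, *Hipk2*, *Sirt1* and *Atf5*, since the strand setting of the counting is not given. Named after their values were seen, the kinase genes *Atr*, *Chek2* and *Hipk2* rose by 0.46, 0.96 and 1.10, and *Atm*, *Trp53bp2* and the deacetylase gene *Sirt1* fell by 0.57, 0.65 and 1.07. *Chek2* was tested only through its level in the knockout livers. *Mdm4*, the partner of MDM2 in holding p53 in check, did not pass (-0.67, SE 0.44).

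Of other CDK inhibitor genes 4 were tested, with 1 higher and 1 lower, beside 25.6% and 23.0% of all genes. The counts were the same without replicate 5. *Cdkn2c*, which encodes p18, rose by 1.60 (2.98 to 4.68 in wild-type and 8.99 to 13.8 in Ndrg3 LKO livers), and *Cdkn1b*, which encodes p27, fell by 0.93. Of 9 other BCL2 family genes 2 rose and 3 fell, beside 25.6% and 23.0% of all genes. Without replicate 5, 4 rose and 3 fell of 10, beside 28.4% and 27.2%. The survival gene *Mcl1* rose by 0.33, and *Bcl2l1* did not pass (0.23, SE 0.20). Named after their values were seen, the BH3-only gene *Bcl2l11* rose by 1.39, while *Bik*, *Bmf* and *Bok* fell by 1.90, 1.70 and 0.69. Pro-apoptotic genes of the family passed the test in both directions, with *Bax* and *Bcl2l11* higher. *Bik*, *Bmf*, *Bok* and *Bid*, the last listed above with the apoptosis targets, were lower.

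The integrated stress response, which shares *Gdf15* as a target, was set beside the p53 genes. Of 11 genes tested 5 rose and 2 fell, beside 25.6% and 23.0% of all genes. Without replicate 5, 5 rose and 3 fell, beside 28.4% and 27.2%. *Asns*, *Nupr1* and *Psat1* were tested only through the knockout livers, and of the 8 genes that pass in wild-type livers alone 2 rose and 2 fell. The transcription factor gene *Atf5* rose by 1.92 (85.4 to 284 in wild-type and 661 to 951 in Ndrg3 LKO livers), and *Atf4*, controlled mostly at translation, did not pass (-0.40, SE 0.20), but was called lower without replicate 5 (-0.55, edgeR adjusted p = 0.0278). Named after their values were seen, *Asns*, *Atf3*, *Nupr1* and *Psat1* rose by 4.10, 1.72, 4.66 and 5.42, and *Chac1* and *Ppp1r15a* fell by 2.29 and 0.67. In Ndrg3 LKO replicate 5, *Atf5* and *Asns* stood at 696 and 31.9, above the wild-type ranges.

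**Figure D4:**
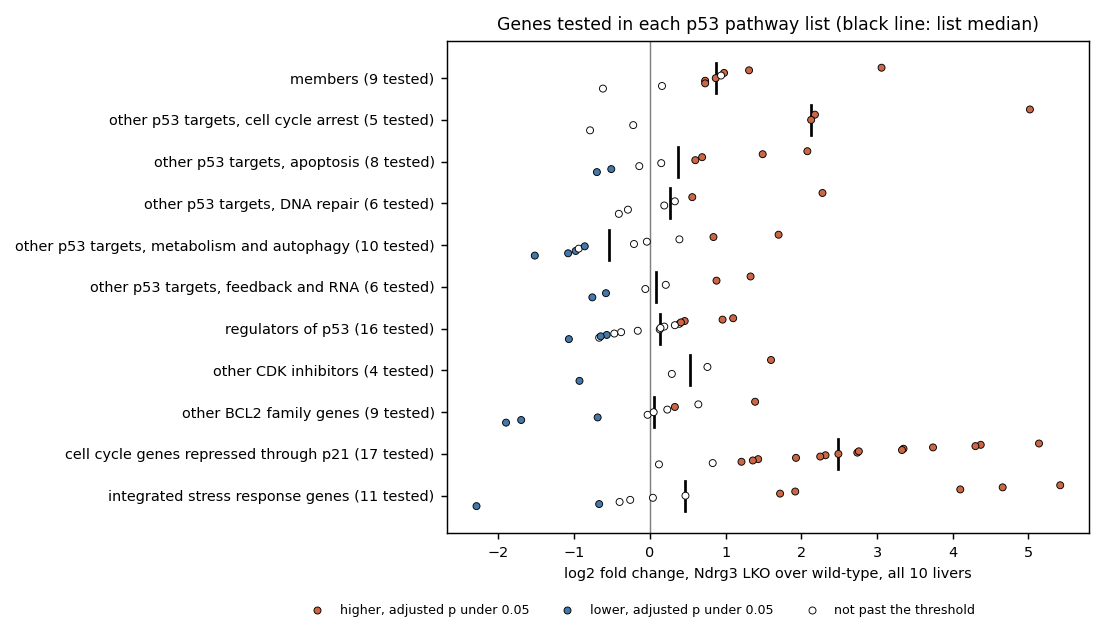
Log2 fold change of Ndrg3 LKO over wild-type in all 10 livers (x axis) of every gene tested in each list, 1 point per gene, coloured where the edgeR adjusted p was under 0.05, with the list median as a black line. Median values run from -0.53 for metabolism and autophagy genes to 2.49 for cell cycle genes, with the members at 0.87.

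Genes of the cell cycle that p21 is known to repress were higher in Ndrg3 LKO livers, not lower. Of 24 listed, 17 were tested, and 15 rose and none fell, beside 25.6% and 23.0% of all genes, with a median log2 fold change of 2.49. Without replicate 5 the counts were the same, beside 28.4% and 27.2%, with a median of 2.16. Of the 17, 10 would not have passed the filter in wild-type livers alone, and of the other 7, 5 rose and none fell. The mitotic kinase gene *Cdk1* stood at 1.91 to 4.02 in wild-type livers and at 20.1, 3.40, 3.07, 10.8 and 33.1 in Ndrg3 LKO replicates 1 to 5 (log2 fold change 2.32, SE 0.61, edgeR adjusted p = 0.00840). Replicates 2 and 3 lay inside the wild-type range. Without replicate 5 the log2 fold change of *Cdk1* was 1.73 (SE 0.52, edgeR adjusted p = 0.0139). *Rrm2*, a subunit of ribonucleotide reductase, did not pass (0.12, SE 0.55). The summed level of the 24 genes was 33.0 to 43.3 in wild-type livers and 218, 55.5, 50.2, 155 and 259 in Ndrg3 LKO livers. Every knockout liver lay above every wild-type liver, and replicate 5, lowest in most p53 members, was highest here. Macrophage marker sums in the same knockout livers were 654, 211, 654, 344 and 268. The cells that expressed the cell cycle genes cannot be told apart in bulk tissue.

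**Figure D5:**
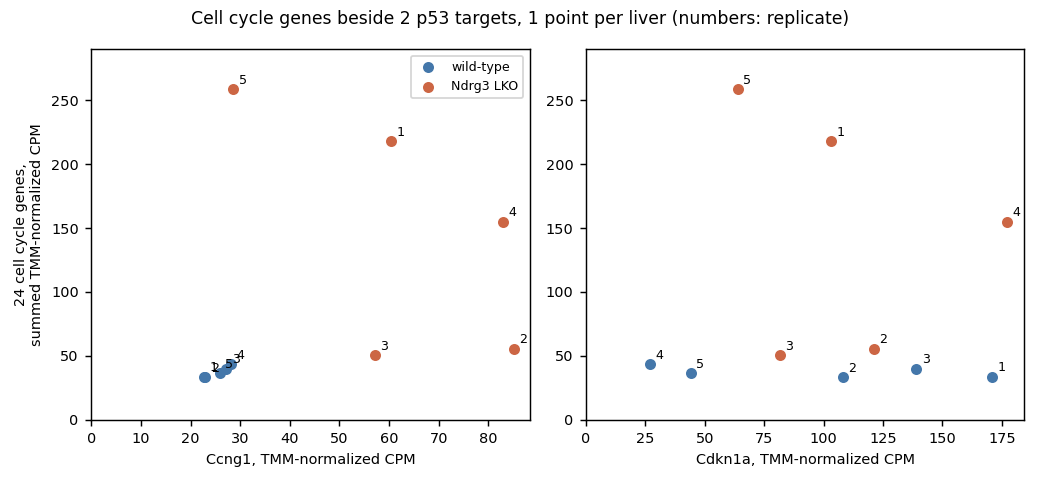
Summed TMM-normalized CPM of 24 cell cycle genes (y axis) against the level of *Ccng1* (left) and of *Cdkn1a* (right), 1 numbered point per liver. Ndrg3 LKO replicate 5 has the highest cell cycle sum, 259, with a *Ccng1* level of 28.6 near the wild-type livers, and replicates 2 and 3 have sums of 55.5 and 50.2 with *Ccng1* levels of 85.2 and 57.1.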

How the data were processed

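Poly(A) RNA of 10 livers was sequenced from stranded libraries. The authors used STAR to map reads to mm9 and to count them on genes. The deposited values are whole-number counts without normalization, although the files are named for CPM. The submitters' processing notes list bcl2fastq, Trim Galore 0.6.4, STAR 2.7.3a and Cufflinks 2.2.1, and the paper's methods name another STAR version. The annotation and strand setting of the counting are not given in the sources used here, so genes that overlap a neighbour on the opposite strand are uncertain (none of the 10 members does).

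Library totals were 20872262 to 24747870 in wild-type and 23474693 to 30450057 in Ndrg3 LKO livers. A gene was tested where 5 or more livers had 1 CPM or more (4 or more in fits that leave out a liver), with edgeR 4.0.16 in R 4.3.3: TMM factors, the quasi-likelihood test and Benjamini-Hochberg adjustment over all genes tested, at 0.05. The SE is the absolute log2 fold change over the root of its F statistic. Exact permutation tests of log2(TMM-normalized CPM + 1) were 2-sided over 252 splits. Levels per kb used the union of annotated exons in GENCODE for NCBIM37. Tests were checked on simulated counts. The alternatives, given at the end, used limma 3.58.1 and DESeq2 1.42.0, other scalings and filters, the replicate number as a block and each liver left out.

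The members and gene lists were chosen with earlier results of these data known. The text names the members, *Ndrg3* and the 2 most abundant tested genes of each list, and says where a gene was named after its values were seen. Livers carry replicate numbers 1 to 5 in both groups. Same-numbered livers did not deviate together from their group means (correlation over genes between -0.357 and 0.0363, with 0 of 5 over 0.1), so the numbers were not used as pairs.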

Additional observations from a re-analysis of the deposited data

Results flagged for a closer look

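In 5 of 62 groups of 5 livers examined, 1 liver lay far from the other 4 by Dixon's criterion, where chance alone gives about 1 in 20 groups. All 5 concerned Ndrg3 LKO replicate 5. *Trp53* was lowest there, at 10.7 TMM-normalized CPM with the next liver at 19.4. *Btg2* was highest there, at 45.8 with the next at 20.8, as was *Gls2*, at 872 with the next at 464. *Aldh4a1* stood at 447 with the next at 245, and *Cdkn1b* at 12.7 with the next at 8.48. What sets this library apart was not tested, and the labels give no batch. The study's legend for its own figure of the RNA data gives 5 wild-type and 4 Ndrg3 LKO livers. It does not say which knockout liver is not shown.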

How the results depend on the processing

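*Trp53*, *Mdm2*, *Ccng1*, *Trp53inp1*, *Bax*, *Phlda3* and *Ndrg3* kept their direction and their side of the threshold under all 19 alternatives run, and 6 or 7 members were called higher in each. *Cdkn1a* changed sign without wild-type replicate 4, wild-type replicate 5 or Ndrg3 LKO replicate 4 (-0.09, -0.05 and -0.08), within a range of -0.09 to 0.44 over the 10 livers left out in turn. *Bbc3* passed the threshold, as the 1 member lower, with quantile normalization (-0.65), DESeq2 (-0.63) and limma-voom (-0.77), and without Ndrg3 LKO replicate 5 (-0.91, in a range of -0.91 to -0.47, with 0 to 1 members lower). Scaling by library totals alone moved the median of all genes by 0.53 and made 85.3% of calls higher, against 52.6% with TMM. Under it *Gdf15* passed (1.51), 2 other p53 targets and 6 genes of all other lists were lower, and *Btg2* (0.20), *Ei24* (0.38), *Xpc* (0.24) and *Atf4* (0.09) changed sign. A mean CPM of at least 5 left 8 other p53 targets higher. Without Ndrg3 LKO replicate 5, *Plk3*, *Btg2* and *Atf4* were called lower and *Rpl5* lost its call. *Ei24* changed sign with quantile normalization (0.15), and *Rrm2* with quantile normalization (-0.27), limma-voom (-0.46) and without wild-type replicate 2 or Ndrg3 LKO replicate 5 (-0.03 and -0.45, in a range of -0.45 to 0.39 over the livers left out). The window of 10000 bases gave a match in 10 members. A fit with the replicate numbers as blocks called 4412 genes (2215 higher and 2197 lower, against 5443) and 6 members higher and 0 lower, and in it *Rrm2* changed sign (-0.33). *Eda2r* could be tested only where the filter let it pass, also where only 4 livers had to reach 1 CPM (5.45), a filter chosen after seeing the data. Library depth limits *Eda2r* most, with 14 wild-type counts in all.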

Other observations

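Examples of p53 targets outside the members whose levels set Ndrg3 LKO replicates 1 to 4 above replicate 5 and the wild-type livers are given here, named after their values were seen. *Tnfrsf10b*, described above, and *Triap1*, at 30.5 to 36.9 in replicates 1 to 4, 20.3 in replicate 5 and at most 19.2 in wild-type livers, had this order too. *Aen* stood at 8.26 to 11.4 TMM-normalized CPM in wild-type livers and at 36.7, 58.4, 40.2, 60.2 and 13.4 in Ndrg3 LKO replicates 1 to 5. *Plk2* stood at 25.9, 25.3, 18.1, 30.3 and 7.08 in the same livers, where wild-type livers reached 6.99. *Polk* stood at 12.7, 20.1, 19.4, 20.9 and 4.53. *Zmat3* was the 1 of these whose groups overlapped in all 10 livers, with replicate 5 at 6.75. Of all genes tested without replicate 5, 22.4% had replicates 1 to 4 above every wild-type liver and 22.3% had them below. Listed targets with the opposite order were *Plk3*, *Fdxr* and *Aldh4a1*. Their levels in replicates 1 to 4 were below every wild-type liver, and replicate 5 was their highest knockout liver.

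The wild-type livers differed among themselves in *Cdkn1a*, from 27.1 in replicate 4 to 171 in replicate 1. *Ddit4*, another p53 target, is named after its values were seen. It was 92.6, 68.8, 46.6, 19.6 and 17.6 in wild-type replicates 1 to 5, lowest in replicates 4 and 5 as *Cdkn1a* was. The order was not shared by *Plk3*, highest in replicate 4 at 220, or by *Btg2*, lowest in replicate 1 at 17.4. What sets these wild-type livers apart was not tested.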
